A study of Mus musculus with 15 samples.

Results

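The transcripts described here encode the nuclear pore and the machinery that carries proteins and RNA through it. They were taken by gene symbol: every probe set whose single symbol on the platform began with Nup and a digit, Kpna, Kpnb, Xpo, Ipo or Tnpo, or was Ndc1, Pom121, Ran, Rangap1, Ranbp1, Ranbp2, Rcc1, Nxf1, Aaas, Seh1l, Cse1l or Tpr. The rule reads gene symbols only. It gave 54 genes (64 probe sets) of the 19452 genes with a single symbol, and each gene was read from 1 probe set, that with its highest 0 min mean. No probe set carried Tpr, Nup35, Nup58 or Nup42 alone as its symbol. Of the 54 genes, 50 were expressed, that is brighter than the array median in 2 or more of the 3 replicates at 0 min, out of 9879 expressed genes. Kpna7, Nup210, Nup210l and Nup62cl were not.

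All samples were proliferating C2C12 myoblasts, a mouse line of muscle precursor cells, kept under 70% confluency and carrying the empty LKO1 vector, so every group shares the vector and the drug. Actinomycin D, which binds DNA and blocks RNA synthesis, was added at 8 µg/mL, and the first sample followed after 30 min. RNA was taken then (0 min) and 10, 50, 110 and 230 min later, in 3 replicate time courses, and each of the 15 samples was hybridised to 1 array. There was no untreated sample, so that the 0 min arrays are the reference throughout, and nothing in the labels says whether the replicates were separate cultures. P-values of the trend fits below measure the scatter of the arrays about a common course, with the level of each replicate removed. Those of the pair ratios rest on the order of the times within each replicate. Neither measures the spread of slopes between the time courses.

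The nuclear pore complex is a large assembly of nucleoporins in the nuclear envelope. Scaffold nucleoporins, among them the Y complex and the inner ring, hold its shape, while nucleoporins rich in phenylalanine-glycine repeats line the channel. Importins and exportins, collectively karyopherins, bind cargo and these repeats, and the small GTPase Ran, kept in its GTP form in the nucleus by the exchange factor Rcc1 and returned to its GDP form in the cytoplasm by Rangap1, gives the transport its direction. The pore itself is long-lived in non-dividing cells, whereas dividing cells have to build new pores in every cycle.

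The unit is a ratio: the authors scaled every array to its own 5th percentile, so that a dim probe set sits near 1 and no value can be read as molecules per cell. Ratios on all arrays are listed in the order of the 5 times. The median ratio of the expressed probe sets was 7.83 to 9.84 over the arrays at 0 min, 7.39 to 7.87 at 50 min, 3.91 to 5.49 at 110 min and 2.89 to 4.65 at 230 min. A pair of arrays stood apart from the others of their time, 110 min of replicate 1 and 230 min of replicate 2. The first was the lowest of its time in 79.6% of expressed probe sets but in only 19 of the 50 expressed members, replicate 2 being the lowest in the other 31, and the second in 92.7% of expressed probe sets and in 50 of 50 members. The 6 myoblast markers examined (Myod1, Myf5, Des, Cdh15, Pax7 and Chrna1) were all expressed, against 4 of 7 myotube markers, 3 of 7 adipocyte and fibroblast markers and 0 of 3 endothelial and blood markers found. The myosin heavy chains Myh1, Myh3 and Myh8 were below the filter, and the myotube markers Acta1, Tnnt3, Mymk and Ckm passed it. At 0 min the mean of Acta1, with a wide spread between replicates, was above those of Pax7, Myf5 and Chrna1. It was below those of Myod1, Des and Cdh15. The summed level of the myotube markers was 20.8 to 39.97 at 0 min and 11.3 to 20.6 at 230 min, and its part in the results was not tested.

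All 50 expressed members fell on the deposited scale, a direction that depends on how the arrays are scaled. As a linear trend of log2 ratio in time, fitted with limma over 12544 expressed probe sets with the replicate as a block, 50 of 50 passed an adjusted p of 0.05, with slopes from -1.05 log2 per hr (Nup62) to -0.14 (Ipo5). Of all expressed probe sets 96.4% were called lower and 0.0239% higher, so that the count sets the members apart from nothing. With every array divided by its median, 21 of 50 members were lower and 0 higher, beside 37.8% and 1.96% of expressed probe sets, and with every array divided by its 75th percentile 9 were lower and 20 higher, beside 15.7% and 50%. The median slope was -0.27 over the members and -0.25 over all expressed probe sets. At 230 min the members kept a median of 51.9% of their 0 min level, against 54.0% over all expressed probe sets, and ranged from 7.17% to 72.9%. In 31 of 50 members all 3 values at 230 min lay below all 3 values at 0 min, and this held for 84.3% of expressed probe sets. In the others, among them Ipo5, Kpnb1, the Ran cycle genes Rcc1, Rangap1 and Ranbp1, and the exportins Xpo1 and Cse1l, the groups overlapped; in each of these named genes the lowest 0 min value was that of replicate 2. Of the 4 members under the filter, Nup62cl kept 107% ± 5.80 (SD, n = 3) at 230 min, and Kpna7, Nup210 and Nup210l kept 78.0%, 70.7% and 76.4%.

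**Figure D1:**
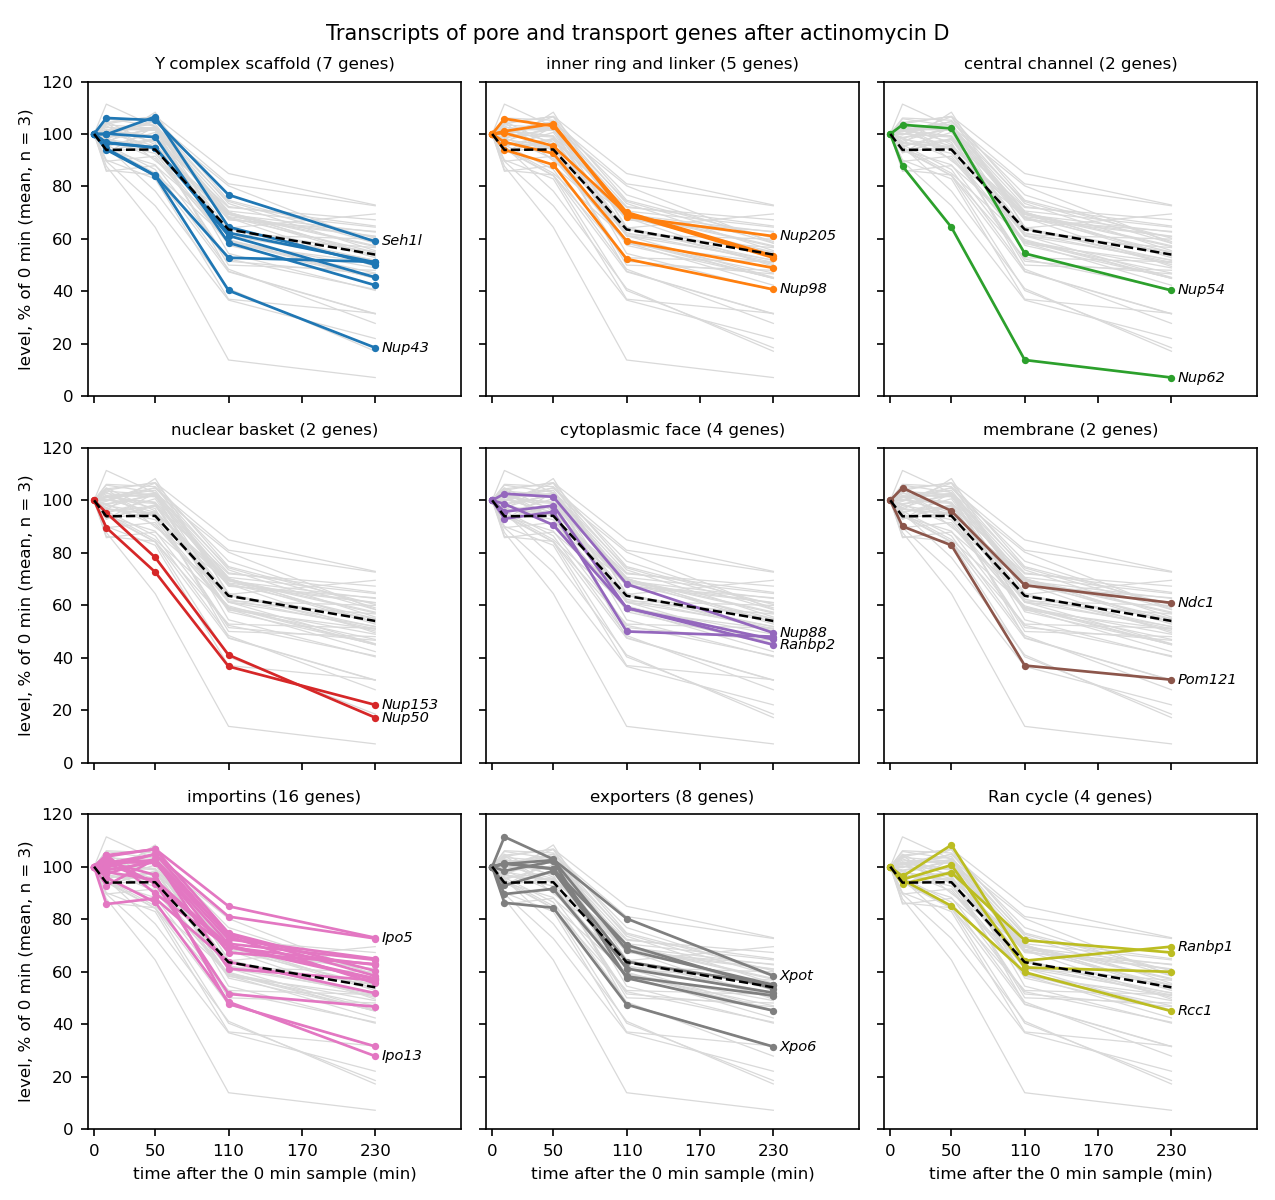
Mean level (percent of the same replicate at 0 min, n = 3) of every expressed member against time in min, one panel for each role. Coloured lines are the genes of the role, grey lines all 50 members and the dashed line the median of all expressed probe sets; the lowest line is Nup62, at 7.17% at 230 min, and the highest at that time is Ipo5, at 72.9%.

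The next comparison asked which members fell faster or slower than the typical transcript, and for this each array was centred. With the median log2 ratio of the expressed probe sets as the centre, the typical probe set itself kept a slope of 0.07 log2 per hr, so that 50.2% of expressed probe sets were called higher and 15.6% lower; among the members 20 were higher and 9 lower, the higher count being 12 without replicate 1 and 9 without replicate 3. Centring on the median change, chosen after seeing these data, brought the typical slope to 0.01 and called 22.6% of expressed probe sets higher and 24.9% lower. Of the 50 members 6 were then higher and 14 lower. Without replicate 1 these counts were 3 and 9, and without replicate 3 they were 1 and 9. Over 8 other settings, among them each replicate left out and both low arrays left out, 8 of the 14 lower members kept the call throughout: Nup62, Nup50, Nup43, Nup153, Ipo13, Kpna2, Pom121 and Xpo6. Of the 6 higher members 0 did. All relative slopes below are on this second centring, in log2 per hr with the SE of the limma fit; the 9 lower calls of the first centring were Nup62, Nup50, Nup43, Nup153, Ipo13, Kpna2, Pom121, Xpo6 and Nup54, and the remaining 5 lower calls are named as such. The percentile given beside a slope is the share of the 12544 expressed probe sets that fell as steeply or more so, which no division of an array by a single value changes. By that measure 5 of 50 members were among the steepest 5% of expressed probe sets, 8 among the steepest 10%, 1 among the shallowest 10% and 0 among the shallowest 5%.

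**Figure D2:**
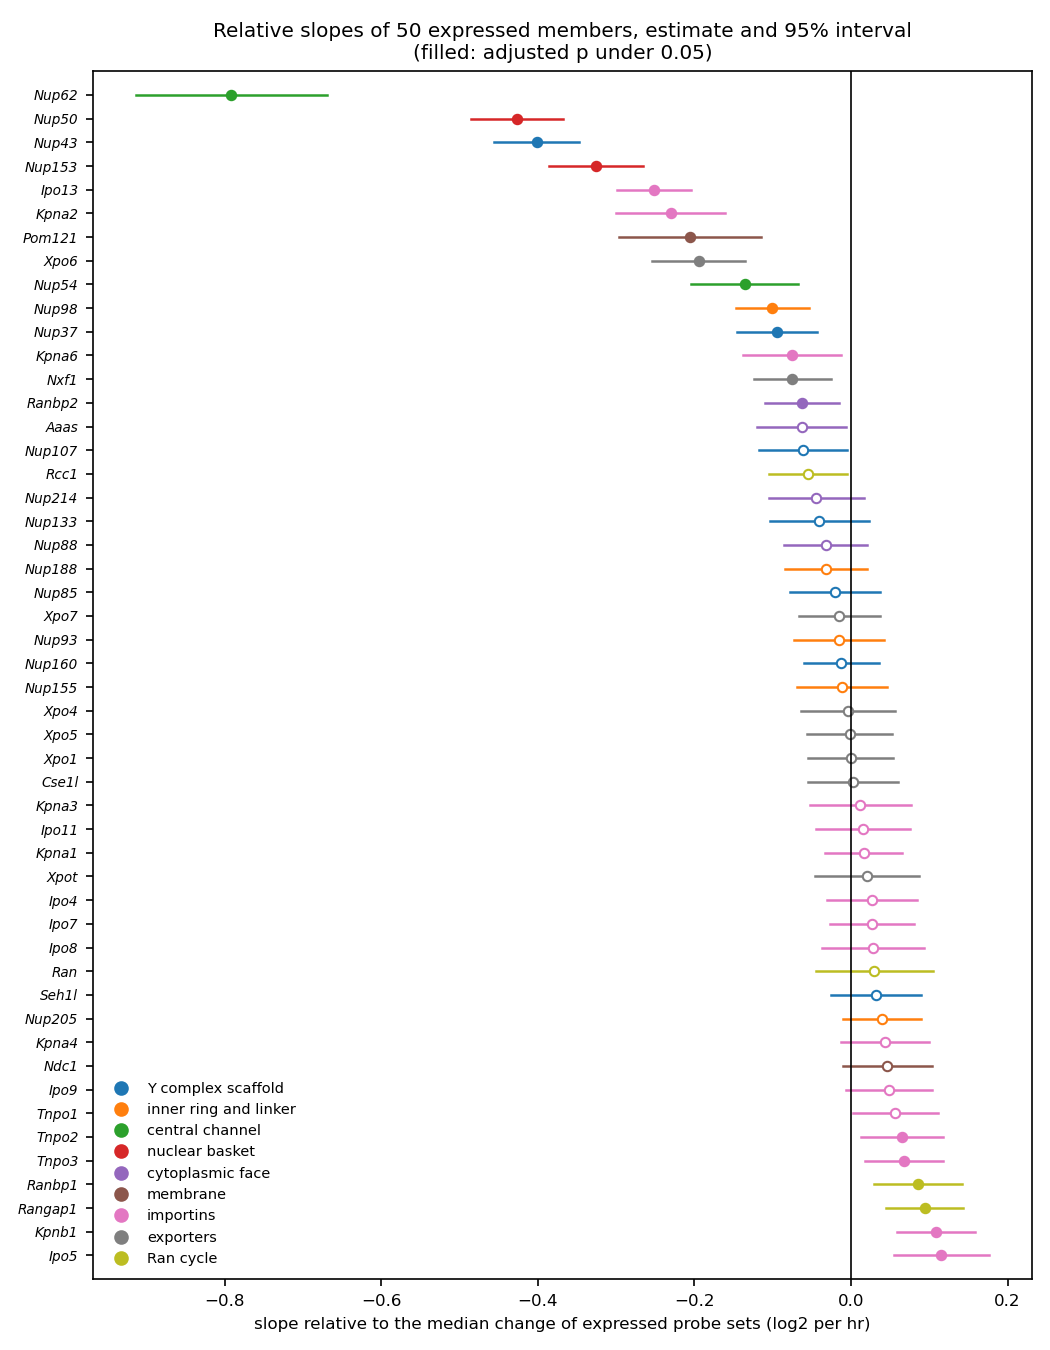
Slope of each of the 50 expressed members relative to the median change of the expressed probe sets (log2 per hr), with its 95% interval, coloured by role; filled points passed an adjusted p of 0.05 in limma. Nup62, Nup50, Nup43 and Nup153 lie farthest to the left, from -0.79 to -0.33, and the 6 filled points on the right, up to 0.12, are importins and Ran cycle genes.

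The nucleoporins were, as a group, on the steep side. Of the 22 expressed, 19 had a percentile under 50, with a median of 29.4, and they kept a median of 47.5% at 230 min. Relative to the median change 9 of 22 were lower and 0 higher, beside 24.9% lower and 22.6% higher over all expressed probe sets. The first centring gave 6 lower and 3 higher, beside 15.6% and 50.2%. The spread within the group was wide, from Nup62 at percentile 0.0957 to Ndc1 at 64.9.

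The steepest fall was in the central channel. Nup62, the repeat nucleoporin that fills the channel together with Nup54 and Nup58, had ratios of 31.1, 27.9, 19.5, 3.88 and 2.24 in replicate 1, 21.7, 18.1, 15.4, 3.03 and 1.56 in replicate 2 and 28.4, 25.7, 17.1, 4.31 and 2.03 in replicate 3. By 50 min 59.99% to 70.8% of the start was left in the replicates, the lowest mean of any expressed member at that time, and by 110 min 12.5% to 15.2%. It kept 7.17% ± 0.03 (SD, n = 3) at 230 min, where its ratios of 1.56 to 2.24 were close to the 5th percentile of the array, so that the last values bound the decay from one side only. Its relative slope was -0.79 ± 0.06 (adjusted p = 6.16e-09). Nup54, its partner in the same subcomplex, had ratios of 11.5, 9.77, 8.34, 4.03 and 4.01 in replicate 1, 6.22, 7.31, 8.33, 3.85 and 1.87 in replicate 2 and 8.28, 8.96, 8.29, 5.51 and 4.66 in replicate 3. Here the 3 values at 0 min and the 3 at 230 min did not overlap, and 40.4% ± 14.0 (SD, n = 3) was left. The last ratio of replicate 2, 1.87, was likewise close to the 5th percentile of the array. The relative slope was -0.14 ± 0.03 (adjusted p = 0.00223), and the call was lost without replicate 1 (-0.12, adjusted p = 0.052) and without the 230 min arrays (-0.14, adjusted p = 0.11).

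Both basket nucleoporins measured fell with Nup62. Nup50, which binds importin alpha and helps release its cargo on the nuclear side, had ratios of 44.8, 38.6, 23.0, 12.1 and 7.0 in replicate 1, 20.0, 21.1, 20.4, 9.72 and 2.87 in replicate 2 and 30.0, 28.2, 24.5, 14.3 and 6.49 in replicate 3. Its loss went on to the end, and every 230 min value lay under every earlier one. It kept 17.2% ± 3.90 (SD, n = 3), with a relative slope of -0.43 ± 0.03 (adjusted p = 2.93e-09). Nup153, the nucleoporin that anchors the basket to the nuclear ring, had ratios of 27.5, 24.6, 15.4, 6.47 and 5.90 in replicate 1, 14.2, 12.8, 12.1, 6.42 and 3.38 in replicate 2 and 22.2, 19.7, 17.0, 9.17 and 4.63 in replicate 3. All 3 replicates fell, and 22.0% ± 1.60 (SD, n = 3) was left at 230 min. Its relative slope was -0.33 ± 0.03 (adjusted p = 4.53e-08), at percentile 2.38 against 0.973 for Nup50.

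To show the sequence at the 5′ ends of the members, promoter windows of RefSeq (GRCm38.p6, 250 bases before to 50 after a start) were read for the 44 of 54 members that the table holds. The 8-base word GCATGCGC, read on both strands, was in the window of 7 of them (15.9%): Nup107, Nup50, Nup62, Ran, Ranbp1, Rcc1 and Xpo5. It was in 6.64% of 8037 expressed genes and in 3.05% of all 27025 genes with a window. The E-box word CACGTG was in 20.5% of members, 12.3% of expressed genes and 8.09% of all genes. GGGCGG was in 70.5%, 72.2% and 38.2%, CCAAT in 47.7%, 43.1% and 41.1%, and TATAAA in 11.4%, 8.27% and 15.7%. The arrays measure what was left after transcription was blocked and carry no reading of promoter use, and the holders of GCATGCGC lie at both ends of the decay range, Nup62 at percentile 0.0957 and Ranbp1 at 81.5. Windows of 30 bases around the word, 5′ to 3′ on the strand of the gene with the word in capitals, are shown for 2 of the fastest members, 1 scaffold nucleoporin and 2 Ran cycle genes:
Nup62 (chr7:44816059-44816088, + strand): taagacaatgcGCATGCGCaacaggttgtg
Nup50 (chr15:84923314-84923343, + strand): ggctccgacgcGCATGCGCagtagctggat
Nup107 (chr10:117792750-117792779, - strand): acgaaagtcgcGCATGCGCcgagcgggaac
Ran (chr5:129019942-129019971, + strand): ccgcagccagcGCATGCGCgtggcagcccg
Ranbp1 (chr16:18248815-18248844, - strand): ggcgcggccggGCATGCGCcgcgggcgttt
In the first 4 the word is preceded by GC, which makes it part of a longer palindrome whose reading on the other strand overlaps it, and in Ranbp1 it is preceded by GG. Nup50 and Xpo5 each held such a site at a pair of places in their window.

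**Figure D3:**
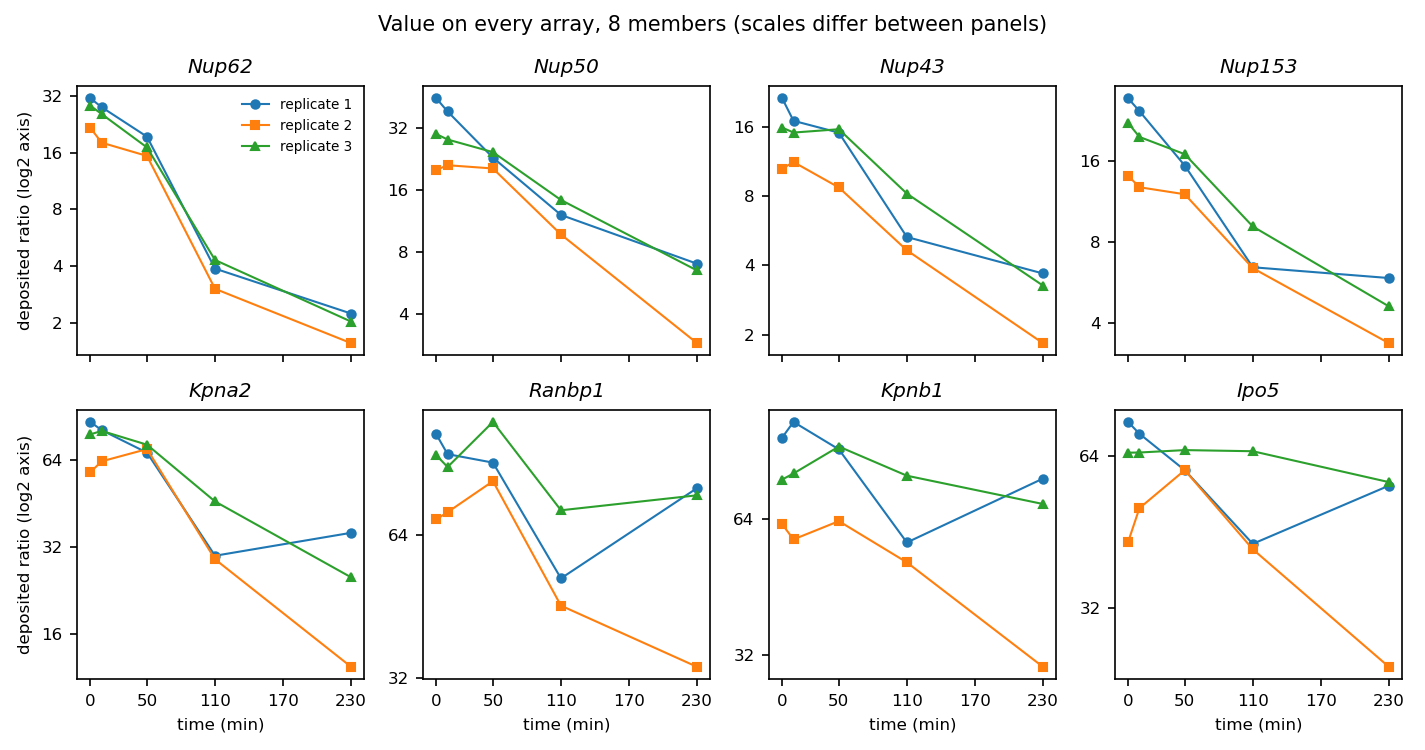
Deposited ratio (log2 axis) on every array against time in min for 8 members, 1 line per replicate. Nup62, Nup50, Nup43 and Nup153 fell in all 3 replicates, to 22.0% or less of 0 min on average, whereas Ranbp1, Kpnb1 and Ipo5 fell less, with replicate 2 the lowest at 230 min.

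Among the 7 genes of the Y complex, the scaffold of the outer rings, Nup43 was alone at the steep end. Its ratios were 21.2, 16.9, 15.1, 5.31 and 3.69 in replicate 1, 10.5, 11.2, 8.71, 4.65 and 1.84 in replicate 2 and 15.8, 15.1, 15.6, 8.19 and 3.27 in replicate 3. No 230 min value reached any value of the first 3 times, and 18.5% ± 1.84 (SD, n = 3) was left. The last ratio of replicate 2, 1.84, was close to the 5th percentile of the array, so it bounds the decay from one side only. The relative slope was -0.40 ± 0.03 (adjusted p = 2.56e-09), at percentile 1.26. Nup37 was the other member of the complex called lower, on the second centring only (-0.09 ± 0.02, adjusted p = 0.00427), and it kept 42.3% ± 5.36 (SD, n = 3). Its last ratio in replicate 2, 2.52, was also close to the 5th percentile. The call was lost without replicate 1 (-0.07, adjusted p = 0.098) and without replicate 3 (-0.08, adjusted p = 0.059). Nup107, which gives the complex one of its names, had ratios of 20.9, 19.0, 16.1, 7.44 and 10.7 in replicate 1, 13.0, 14.2, 13.5, 8.26 and 4.89 in replicate 2 and 17.1, 15.4, 17.7, 14.5 and 8.06 in replicate 3. It kept 45.4% ± 6.95 (SD, n = 3), and its relative slope of -0.06 ± 0.03 did not pass the test (adjusted p = 0.065). Nup133, Nup160, Nup85 and Seh1l did not pass either, at -0.04 to 0.03, and kept 50.2% to 59.0%. So 2 of 7 scaffold genes were lower and 0 higher, beside the background shares above. The first centring gave 1 lower and 1 higher, beside 15.6% and 50.2% of expressed probe sets.

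Of the 5 inner ring and linker genes 1 was lower, and 24.9% of expressed probe sets were. The first centring gave 0 lower and 1 higher (Nup205), beside 15.6% and 50.2%. Nup98, a repeat nucleoporin that also binds the export factor Rae1, had ratios of 25.8, 23.6, 19.2, 9.35 and 12.1 in replicate 1, 14.7, 13.8, 13.9, 8.01 and 5.05 in replicate 2 and 20.3, 19.6, 19.4, 13.5 and 8.30 in replicate 3. All 230 min values were under all 0 min values, with 40.7% ± 6.36 (SD, n = 3) left. Its relative slope was -0.10 ± 0.02 (adjusted p = 0.00117) on the second centring and -0.04 (adjusted p = 0.092) on the first. Without replicate 3 it was -0.08 (adjusted p = 0.056). The large scaffold proteins Nup205 and Nup188 had relative slopes of 0.04 ± 0.02 (adjusted p = 0.18) and -0.03 ± 0.03 (adjusted p = 0.31), and Nup93 and Nup155 of -0.01 each (adjusted p = 0.68 and 0.75). These 4 kept between 49.0% and 61.1%.

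The 4 genes of the cytoplasmic face were close together, keeping 45.0% to 49.5%, at percentiles 27.0 to 35.0. Ranbp2, the SUMO ligase of the cytoplasmic filaments, had ratios of 27.1, 27.2, 19.9, 12.6 and 13.5 in replicate 1, 15.8, 15.2, 15.3, 10.3 and 6.21 in replicate 2 and 21.2, 21.1, 21.6, 13.9 and 9.69 in replicate 3. The 0 and 230 min values did not overlap. With 45.0% ± 5.28 (SD, n = 3) left and a relative slope of -0.06 ± 0.02 (adjusted p = 0.028) it was the only one of the 4 called lower, on the second centring only, and not without replicate 1 (-0.07, adjusted p = 0.062) or replicate 3 (-0.04, adjusted p = 0.34). Nup214, Nup88 and Aaas had relative slopes of -0.04, -0.03 and -0.06 and did not pass the test (adjusted p = 0.21, 0.31 and 0.063).

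The 2 expressed membrane nucleoporins parted. Pom121, a transmembrane nucleoporin with repeats, kept 31.6% ± 8.31 (SD, n = 3), with a relative slope of -0.21 ± 0.04 (adjusted p = 7.28e-04). Its 230 min ratios in replicates 2 and 3, 1.82 and 1.84, were close to the 5th percentile of the array. On the first centring the slope was -0.15 (adjusted p = 0.0052), and -0.08 without replicate 3 (adjusted p = 0.16). Ndc1, the other transmembrane anchor, had ratios of 16.1, 20.4, 13.6, 9.21 and 10.4 in replicate 1, 10.8, 10.9, 12.2, 7.56 and 5.93 in replicate 2 and 16.9, 14.6, 15.3, 12.8 and 10.7 in replicate 3. It kept 60.9% ± 5.45 (SD, n = 3), the 0 and 230 min groups missing each other by little, and its relative slope of 0.05 ± 0.03 did not pass (adjusted p = 0.17), although on the first centring it was among the higher calls. A test of the difference between the 2 genes was not run.

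The importins were mostly past the middle of the distribution. Of the 16 expressed, 13 had a percentile over 50, the median was 56.5, and a median of 57.9% was left at 230 min. On the second centring 4 were higher and 3 lower, shares close to the 22.6% and 24.9% of expressed probe sets, and on the first 13 were higher and 2 lower, beside 50.2% and 15.6%. The 4 higher ones of the second centring belonged to the importin beta family, whose members carry cargo directly or through an adaptor. The 13 of the first included the importin alpha genes Kpna1, Kpna3 and Kpna4. Ipo5, an importer of ribosomal proteins and histones, had ratios of 74.6, 70.7, 59.9, 42.8 and 55.8 in replicate 1, 43.1, 50.4, 59.9, 41.7 and 24.4 in replicate 2 and 64.9, 64.9, 65.6, 65.3 and 56.7 in replicate 3. The time courses differed: replicate 3 stayed near its start until 110 min, replicate 1 fell at 110 min and was higher again at 230 min, and replicate 2 was highest at 50 min. It kept 72.9% ± 15.5 (SD, n = 3), with a relative slope of 0.12 ± 0.03 (adjusted p = 0.00334), at percentile 90.6, the shallowest of the members. Without replicate 3 the slope was 0.10 (adjusted p = 0.067).

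Kpnb1, importin beta itself, had ratios of 96.6, 105, 91.0, 56.7 and 78.4 in replicate 1, 62.2, 57.6, 63.2, 51.2 and 30.1 in replicate 2 and 78.0, 80.5, 92.3, 79.6 and 68.9 in replicate 3. The 230 min values spread from 30.1 to 78.4 and overlapped the 0 min values. It kept 72.6% ± 21.3 (SD, n = 3), with a relative slope of 0.11 ± 0.02 (adjusted p = 0.00112). On the deposited scale neither Kpnb1 nor Ipo5 passed the trend test without replicate 2 (slopes of -0.09 each, adjusted p = 0.19 and 0.22) or without the 230 min arrays (-0.19 and -0.16, adjusted p = 0.083 and 0.13), and Rangap1 and Ranbp1 also lost it without replicate 2 (-0.12 and -0.11, adjusted p = 0.097 and 0.13). Transportins Tnpo2 and Tnpo3 were higher by 0.06 ± 0.02 and 0.07 ± 0.02 (adjusted p = 0.040 and 0.026), and kept 64.9% and 64.5%. Both lost the call without replicate 1 (adjusted p = 0.067 and 0.10) and without replicate 3 (adjusted p = 0.31 and 0.17). Tnpo3 had ratios of 46.3, 41.8, 34.0, 19.8 and 29.6 in replicate 1 and 23.1, 27.3, 28.6, 19.0 and 13.15 in replicate 2. In replicate 3 its ratios were 35.6, 34.45, 38.2, 30.9 and 25.9. Tnpo1, the importer of many RNA-binding proteins, had 0.06 ± 0.03 (adjusted p = 0.080) and ratios of 46.4, 43.7, 34.5, 19.1 and 26.1 in replicate 1, 27.7, 31.1, 26.6, 23.0 and 15.8 in replicate 2 and 39.5, 42.3, 39.1, 33.0 and 29.4 in replicate 3. Ipo4, Ipo7, Ipo8, Ipo9 and Ipo11 had relative slopes of 0.02 to 0.05, none of which passed.

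Ipo13 had the steepest relative slope of the 16 expressed importins, and no test of it against the others was run. This gene, for a receptor that imports exon junction proteins and exports a translation factor, had ratios of 15.3, 14.1, 11.8, 5.47 and 4.74 in replicate 1, 11.04, 10.9, 10.2, 5.17 and 2.25 in replicate 2 and 12.04, 11.7, 10.9, 7.56 and 3.86 in replicate 3. The 110 and 230 min values were all under the values of the earlier times. It kept 27.8% ± 6.45 (SD, n = 3), with a relative slope of -0.25 ± 0.02 (adjusted p = 6.54e-08), at percentile 4.89. The last ratio of replicate 2, 2.25, was close to the 5th percentile of the array, so that value bounds the decay from one side only.

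The importin alpha genes, whose proteins link the classical nuclear localisation signal to importin beta, did not fall together. Kpna2 had ratios of 86.4, 81.0, 67.7, 29.8 and 35.7 in replicate 1, 57.9, 63.1, 69.6, 28.9 and 12.3 in replicate 2 and 78.3, 80.5, 72.1, 45.9 and 25.1 in replicate 3. Its level held to 50 min in replicates 2 and 3, and all 110 and 230 min values were under all earlier ones. It kept 31.5% ± 10.1 (SD, n = 3), with a relative slope of -0.23 ± 0.03 (adjusted p = 1.72e-05). The other 2 probe sets with this symbol kept 28.0% ± 8.19 and 24.3% ± 8.28 (SD, n = 3), and the order was the same in all 3 replicates, the probe set described here keeping the most. Kpna1 had ratios of 15.1, 12.1, 10.96, 6.68 and 7.69 in replicate 1, 8.86, 8.24, 9.16, 6.47 and 3.69 in replicate 2 and 12.8, 10.8, 11.3, 9.49 and 8.06 in replicate 3. It kept 51.8% ± 10.6 (SD, n = 3), and its relative slope of 0.02 ± 0.02 did not pass (adjusted p = 0.59). Kpna6 was lower on the second centring only (-0.08 ± 0.03, adjusted p = 0.044) and not with any 1 replicate left out (adjusted p = 0.074 to 0.28), and Kpna3 and Kpna4 did not pass (0.01 and 0.04, adjusted p = 0.77 and 0.19).

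Exporters sat near the middle of the distribution. Of 8, 2 were lower and 0 higher, beside 24.9% and 22.6% of expressed probe sets, and the median percentile was 44.6. The first centring gave 1 lower and 1 higher, beside 15.6% and 50.2%. Xpo6, which exports actin and profilin, kept 31.4% ± 9.92 (SD, n = 3), with a relative slope of -0.19 ± 0.03 (adjusted p = 1.79e-05). Nxf1, the main export receptor of mRNA, had ratios of 30.2, 29.1, 23.9, 10.9 and 13.4 in replicate 1, 20.5, 19.9, 23.3, 13.2 and 7.80 in replicate 2 and 24.9, 25.4, 28.3, 17.9 and 13.2 in replicate 3. It kept 45.2% ± 7.52 (SD, n = 3), its 0 and 230 min values did not overlap, and its relative slope was -0.08 ± 0.02 (adjusted p = 0.013) on the second centring, against -0.02 (adjusted p = 0.53) on the first. On the second it was -0.06 without replicate 1 (adjusted p = 0.13) and -0.08 without replicate 3 (adjusted p = 0.065).

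Xpo1, the exporter of proteins with a leucine-rich export signal, had ratios of 43.9, 41.9, 34.9, 18.6 and 22.7 in replicate 1, 26.6, 29.8, 33.1, 24.0 and 12.4 in replicate 2 and 43.2, 41.3, 40.3, 33.5 and 26.8 in replicate 3. The 0 and 230 min groups overlapped at replicate 2 of the first and replicate 3 of the second. It kept 53.5% ± 7.81 (SD, n = 3), and the 95% interval of its relative slope was -0.05 to 0.05. Cse1l, which returns importin alpha to the cytoplasm, had ratios of 91.7, 82.3, 71.8, 35.9 and 52.6 in replicate 1, 51.5, 59.8, 65.7, 40.9 and 21.8 in replicate 2 and 80.5, 78.5, 82.0, 69.5 and 52.6 in replicate 3. It kept 55.0% ± 11.7 (SD, n = 3), with a relative slope of 0.00 ± 0.03 (95% interval -0.06 to 0.06). Xpo4, Xpo5, Xpo7 and Xpot lay between -0.01 and 0.02 and did not pass.

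In the Ran cycle 2 of 4 genes were higher and 0 lower, beside 22.6% and 24.9% of expressed probe sets, and on the first centring 3 were higher, beside 50.2%. Ran had ratios of 56.9, 52.8, 51.4, 21.9 and 38.4 in replicate 1, 39.4, 36.8, 31.4, 17.5 and 16.2 in replicate 2 and 44.2, 43.7, 58.3, 45.1 and 31.4 in replicate 3. Its replicates spread widely at 110 min, from 17.5 to 45.1. It kept 59.9% ± 16.3 (SD, n = 3), with a relative slope of 0.03 ± 0.04 (adjusted p = 0.51), while on the first centring it was called higher (0.09, adjusted p = 0.036). Rcc1, the exchange factor, had ratios of 20.2, 18.8, 15.6, 8.74 and 9.08 in replicate 1, 8.43, 8.5, 8.22, 5.28 and 3.08 in replicate 2 and 14.96, 13.6, 11.99, 10.97 and 7.97 in replicate 3. Replicate 2 started at 8.43, below the 9.08 of replicate 1 at 230 min, and 45.0% ± 8.37 (SD, n = 3) was left. Its relative slope was -0.05 ± 0.02 (adjusted p = 0.066).

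Rangap1, the GTPase activator, had ratios of 54.7, 48.2, 41.4, 24.0 and 37.0 in replicate 1, 30.4, 27.7, 35.0, 24.5 and 15.3 in replicate 2 and 41.7, 42.0, 42.6, 38.1 and 34.9 in replicate 3. It kept 67.3% ± 16.7 (SD, n = 3), with a relative slope of 0.09 ± 0.02 (adjusted p = 0.00314), and 0.08 without replicate 3 (adjusted p = 0.080). Ranbp1, a cofactor of Rangap1, had ratios of 104, 94.3, 90.5, 51.8 and 80.1 in replicate 1, 68.8, 71.3, 82.8, 45.4 and 33.8 in replicate 2 and 93.8, 88.7, 110.2, 71.9 and 77.3 in replicate 3. In replicates 1 and 3 the 230 min value was above the 110 min value, and in replicate 2 it was below. Ranbp1 kept 69.5% ± 17.9 (SD, n = 3), with a relative slope of 0.09 ± 0.03 (adjusted p = 0.013). The slope was 0.07 without replicate 1 (adjusted p = 0.18), 0.07 without replicate 3 (adjusted p = 0.13) and 0.04 without the 230 min arrays (adjusted p = 0.65).

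The time at which a member left the typical course was then examined with time as a factor. Between 0 and 50 min 0 of 50 members passed on the first centring by limma, where 2 lower and 2 higher had an unadjusted p under 0.05 and 2.85% of expressed probe sets were called lower and 1.01% higher. On the second centring Nup62 was lower, by -0.52 ± 0.13 (SE; adjusted p = 0.028), when 3.83% of expressed probe sets were lower and 0.542% higher. Nup153 and Nup50 came next, at -0.37 ± 0.12 and -0.29 ± 0.12, and did not pass (limma adjusted p = 0.11 and 0.21). Between 50 and 230 min the first centring called 7 members lower (10.1% of expressed probe sets) and 8 higher (31.2%), the latter 3 without replicate 1 and 0 without replicate 3. The second called 11 lower (16.6%) and 1 higher (9.65%). The lower ones were Nup62 (-2.33 ± 0.13), Nup43 (-1.34 ± 0.11), Nup50 (-1.32 ± 0.12), Nup153 (-0.87 ± 0.12), Ipo13 (-0.83 ± 0.10), Kpna2 (-0.81 ± 0.14), Xpo6 (-0.64 ± 0.13), Pom121 (-0.58 ± 0.17), Nup54 (-0.51 ± 0.14), Nup37 (-0.38 ± 0.11) and Nxf1 (-0.33 ± 0.10). The higher one was Tnpo1 (0.31 ± 0.11). Pom121, Nup54, Nup37 and Nxf1 were not among the 7 lower calls of the first centring. For these contrasts no replicate was left out on the second centring. Both contrasts use the 50 min arrays. The later one spans the longer time, so sizes and counts of the 2 contrasts are not on one scale. They do not date when a member left the typical course.

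The course of the steep members was then read interval by interval, per hour, since the intervals last 40, 60 and 120 min. Set against the median change of the expressed probe sets, Nup62 changed by -0.65 ± 0.32 log2 per hr (SD, n = 3) from 10 to 50 min and by -1.60 ± 0.16 from 50 to 110 min. From 110 to 230 min it gave -0.35 ± 0.19, a bound only, as its last ratios were close to the 5th percentile of the array. For Nup50 the same intervals gave -0.48 ± 0.33, -0.31 ± 0.22 and -0.50 ± 0.09 log2 per hr, and for Nup43 -0.23 ± 0.36, -0.49 ± 0.15 and -0.41 ± 0.07. In replicate 2 the last rate of Nup43 rests on a ratio of 1.84, also close to that percentile. Nup153 gave -0.47 ± 0.25, -0.40 ± 0.05 and -0.22 ± 0.09. For Ranbp1 they were 0.25 ± 0.07, -0.15 ± 0.18 and 0.17 ± 0.06. The SDs of Nup50 and of Nup43 overlapped between all 3 intervals, and no test between intervals was run. These are relative rates: over all 50 members the deposited log2 change over the whole interval had a median of -0.03 from 0 to 10 min, -0.04 from 10 to 50 min, -0.65 from 50 to 110 min and -0.26 from 110 to 230 min.

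Half-lives were fitted in each replicate as an exponential decay to 0 on the ratios. A half-life was called reliable when, in at least 2 of 3 replicates, the two-sided p of the decay rate was under 0.05 and the 95% interval was narrower than 2 times the half-life. This held for 8 of 50 members (16%), beside 11.2% of expressed probe sets. The median of the 8 was 1.82 hr, against 2.20 hr over all expressed probe sets with a reliable half-life, and the other 42 members had no reliable value. Means and SDs of half-lives take in all 3 fits, also where 1 of them was not reliable. With 1 replicate left out, where both that remain must pass, 5, 4 and 3 members were reliable without replicate 1, 2 and 3, and the median without replicate 1 was 2.77 hr. The shortest was that of Nup62, 51.8, 58.3 and 52.1 min in replicates 1, 2 and 3, mean 54.1 min ± 3.66 (SD, n = 3). Nup50 gave 60.9, 105 and 109 min in replicates 1, 2 and 3, mean 91.4 min ± 26.5 (SD, n = 3). For Nup153, one of 2 members reliable in all 3 replicates, the fits were 64.1, 113 and 99.2 min in replicates 1, 2 and 3, mean 91.9 min ± 25.04 (SD, n = 3).

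Nup43 had 75.7, 94.8 and 119 min in replicates 1, 2 and 3, mean 96.6 min ± 21.9 (SD, n = 3). Ipo13, the other member reliable in all 3, had 105, 109 and 151 min in replicates 1, 2 and 3, mean 122 min ± 25.7 (SD, n = 3). The means of Nup50, Nup153 and Nup43 lay within 1 SD of each other. Above them were Nup98 at 158 min ± 23.4 (SD, n = 3) and Rcc1 at 192 min ± 64.4 (SD, n = 3), and the longest was Tnpo1, 184, 265 and 449 min in replicates 1, 2 and 3, mean 299 min ± 136 (SD, n = 3), which is beyond the 230 min sampled. In Nup98, Rcc1 and Tnpo1 the fit of replicate 1 was not reliable, with a 95% interval of 44.6 to 4535 min in Nup98. Replicate 3 gave the longest fits in most members: the median over the 50 was 171 min in replicate 1, 193 min in replicate 2 and 333 min in replicate 3.

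These lengths depend on the scale of the arrays. After division by the array median the half-life of Nup62 was 65.1 min, of Nup50 129 min, of Nup153 140 min, of Nup43 136 min, of Ipo13 199 min, of Nup98 338 min, of Rcc1 600.5 min and of Tnpo1 1156 min, so that Nup62 remained the shortest of the 8 while Nup153, Ipo13, Nup98, Rcc1 and Tnpo1 moved by over 1.5 times. Only Nup62, Nup50, Nup43 and Ipo13 were reliable on that scale, 4 of the 8.

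**Figure D4:**
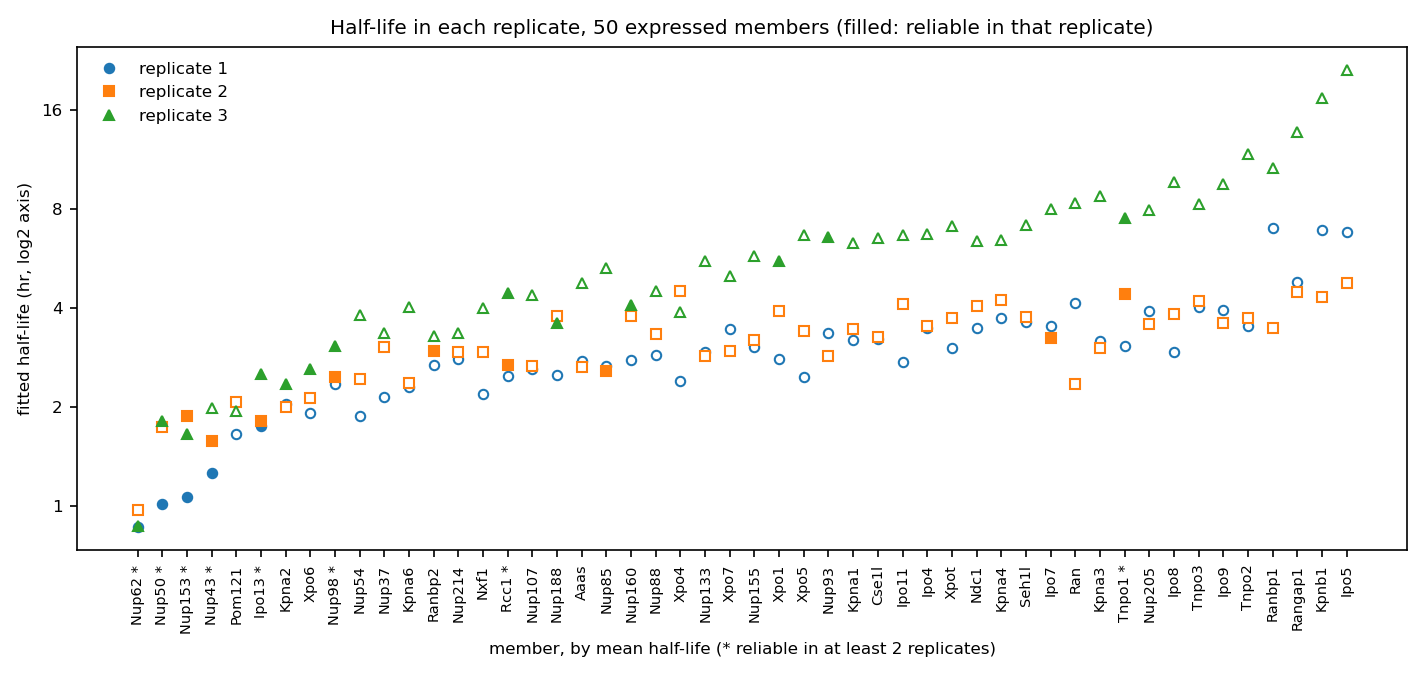
Fitted half-life in hr (log2 axis) of the 50 expressed members in each of 3 replicates, ordered by mean; filled markers were reliable in that replicate and names with an asterisk in at least 2. Nup62 is lowest in all 3 replicates, at 51.8 to 58.3 min, and the replicates spread apart toward the right, where few fits were reliable.

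Pairs of related or partnered members were compared as a ratio on the same array, which does not depend on the scaling. The 5 times were permuted within each of the 3 replicates (1728000 orders, exact, two-sided), with Benjamini-Hochberg adjustment over 12 pairs. The pairs were chosen with earlier results of these data known, and members already called steep are among them. Their p-values are therefore no independent evidence for the slopes above. Nup153 over Nup98, both repeat nucleoporins, fell by 0.23 log2 per hr, with the same sign in 3 of 3 replicates (exact permutation p = 5.79e-07, the smallest this test can give, adjusted p = 6.94e-06). Kpna2 over Kpna1 fell by 0.25, again in 3 of 3 (exact permutation p = 2.36e-04, adjusted p = 0.00141). Ranbp2 over Ranbp1 fell by 0.15 in 3 of 3 (exact permutation p = 0.00127, adjusted p = 0.00506), although without replicate 3 the slope was -0.11 (adjusted p = 0.085). Ratios of a single array carry the changes of both members, so they show unequal decay and not which of the pair changed.

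For the other 9 pairs the test was not passed. Nup188 over Nup205 and Kpna6 over Kpna1 had slopes of -0.07 and -0.09 (both adjusted p = 0.072), and without replicate 2 the former passed, at -0.12 (adjusted p = 0.0071). Rcc1 over Ran had -0.08 (adjusted p = 0.21). Kpnb1 over Ipo5, Ipo8 over Ipo7, Tnpo2 over Tnpo1 and Cse1l over Xpo1 had slopes within 0.01 of 0. Over the replicates the slope of Kpnb1 over Ipo5 ran from -0.01 to -0.0027, that of Ipo8 over Ipo7 from -0.03 to 0.03, that of Tnpo2 over Tnpo1 from -0.04 to 0.04 and that of Cse1l over Xpo1 from -0.05 to 0.04. Xpot over Xpo5 (0.02) and Kpna4 over Kpna3 (0.03) had no common sign in the replicates.

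**Figure D5:**
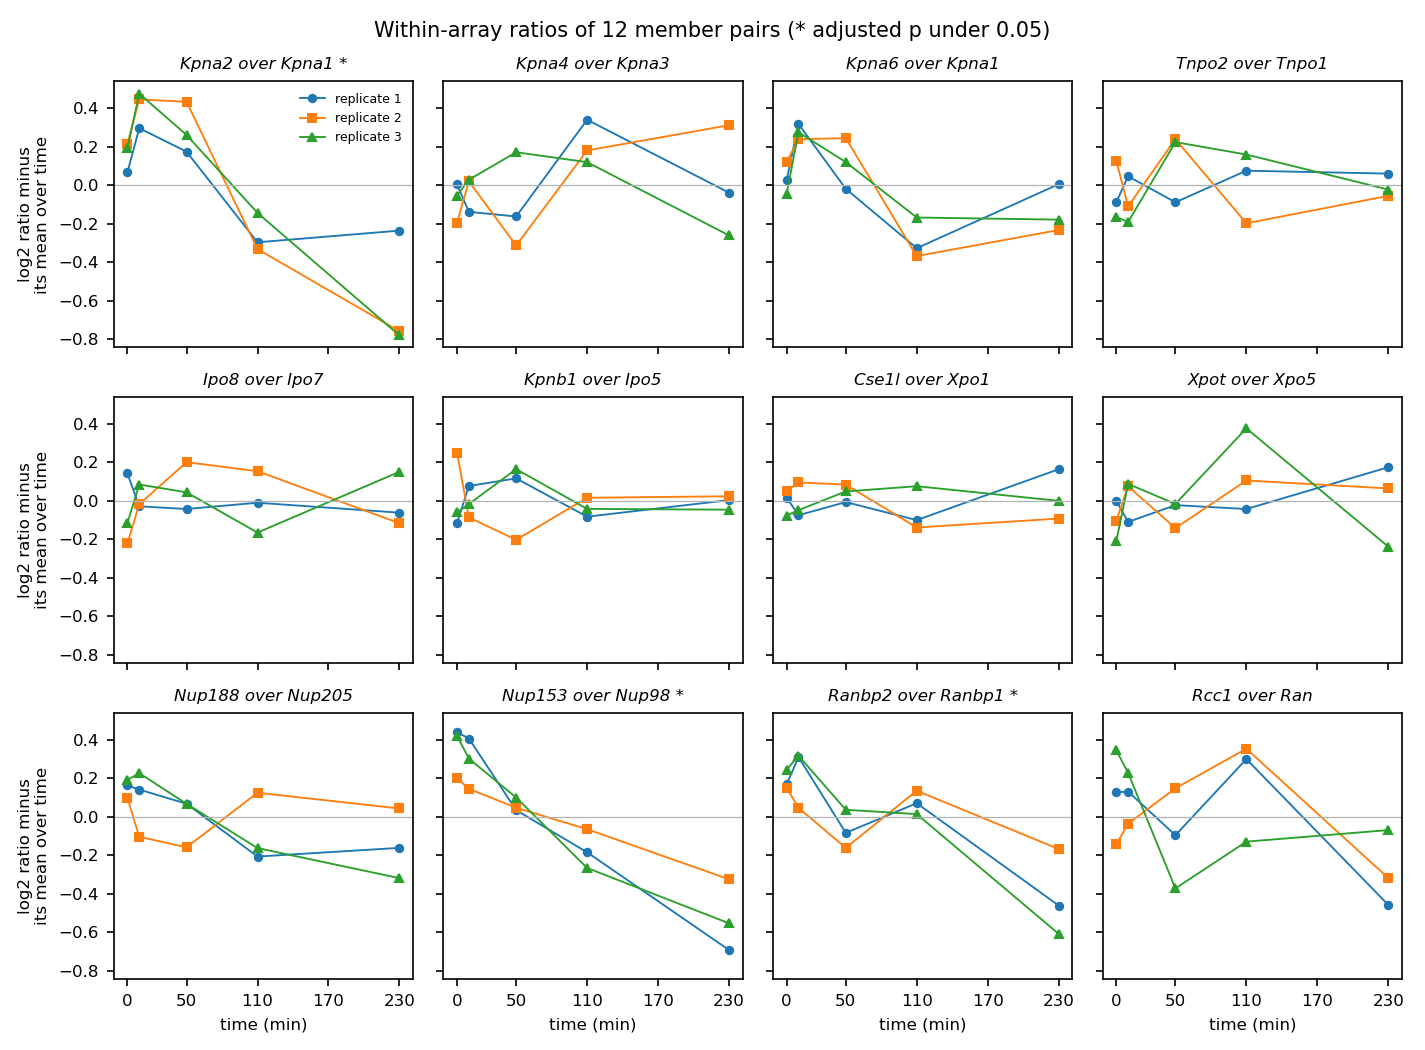
Log2 ratio of 12 pairs of members on the same array, minus its mean over the 5 times, against time in min, 1 line per replicate; an asterisk marks an adjusted p under 0.05. Nup153 over Nup98 falls steadily in all 3 replicates, and Kpna2 over Kpna1 stays up until 50 min before it drops.

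Genes that work with the pore without being members were read from the same fit. Of 30 further pore and transport factors 26 had a probe set, all expressed, and all fell on the deposited scale (96.4% over all expressed probe sets). On the second centring 7 were lower and 4 higher, with a median relative slope of -0.0040, beside -0.01 for the members and shares of 24.9% and 22.6% of expressed probe sets. The steepest was Nxt1, the partner of Nxf1, at -0.34 ± 0.04 (adjusted p = 7.76e-07), then Phax, the adaptor for export of small nuclear RNA, at -0.32 ± 0.03 (adjusted p = 7.74e-08), and Ahctf1, which seeds pore assembly on chromatin, at -0.28 ± 0.03 (adjusted p = 8.93e-08). Of 15 genes of the lamina and inner nuclear envelope 14 fell on the deposited scale, and on the second centring 2 were lower and 6 higher, beside the same shares, with a median of 0.04. Emd, Lbr and Lmna were the shallowest of them, at 0.17 ± 0.03, 0.13 ± 0.04 and 0.12 ± 0.02 (adjusted p = 1.34e-04, 0.0088 and 4.38e-04), whereas Lemd3 was at -0.29 ± 0.02 (adjusted p = 1.49e-08). No test of the difference between these lists and the members was run.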

How the data were processed

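Affymetrix Mouse Gene 1.0 ST arrays were hybridised with RNA of C2C12 (LKO1) cells, 1 array for each of 5 times in 3 replicate time courses. The deposited unit is a ratio, for which the authors scaled every summarised array to its 5th percentile. Summary method: not given in the sources used here. No detection p-values accompany the values. Arrays give no counts, and their number limits the precision. Of 25175 probe sets 21044 had a single symbol in the platform annotation, 1492 several and 2639 none; 20959 matched a RefSeq table of assembly GRCm38.p6, used for names and promoter windows. Probe sets with more than 1 symbol stayed unnamed.

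Trends were fitted with limma 3.58.1 in R 4.3.3 on log2 of the deposited ratios over 12544 expressed probe sets, blocking on the replicate, with eBayes and a Benjamini-Hochberg adjusted threshold of 0.05, as deposited, after centring each array on the median log2 of expressed probe sets, and after centring on the median difference from each probe set's own mean. Time was also fitted as a factor. Each replicate number names a time course, fitted on its own in the study's methods, and deviations from the means of the times correlated over 0.1 in 29 of 30 same-numbered array pairs (median 0.362), against 14 of 60 others (median -0.216). Half-lives were fitted with scipy 1.17.1 and numpy 2.4.6 in Python 3.11.15 (pandas 2.3.3, matplotlib 3.10.9) as A·exp(-kt) in each replicate, with profile intervals at 95%. Tested on simulated data over 12544 probe sets, the relative trend recovered 56% of slopes of 0.125 log2 per hr. It recovered 96% of 0.25 and 100% of 0.5 and 1, and made 8 false calls. The simulation used the first centring and noise independent between arrays and probe sets, without shifts shared by an array. Those 8 therefore give no error rate for the calls above. Simulated half-lives of 30 to 120 min were fitted at a median of 1.00 times the true value, and reliable ones of 300 to 600 min at 0.861 times. That noise too was independent, and the simulated decay had no floor. Of these fits 94.5% were reliable at 30 to 120 min and 19.3% at 300 to 600 min. In the data 4.37% to 24.3% of expressed probe sets were reliable in a single replicate. The members, their roles, the lists and the pairs were chosen with earlier results of these data known. Values on every array are given for the 4 steepest and 4 shallowest members, the 4 shortest and longest reliable half-lives, up to 5 members called in each direction of the relative trend, and textbook members; others are given by count and range, and any further one was named after its values were seen. Alternatives covered scaling, centring, the level filter, the block, replicates, times, the variance model, the decay model and several probe sets of a gene.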

Additional observations from a re-analysis of the deposited data

How the results depend on the processing

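The direction of the deposited slopes depended on the scale. With arrays divided by their median the slopes of Ipo5, Kpnb1, Rangap1 and Ranbp1 turned to 0.037, 0.031, 0.016 and 0.0077 log2 per hr, passing no test, and divided by the 75th percentile to 0.17, 0.17, 0.15 and 0.14, all passing; that of Nup62 stayed negative. Of 50 members, those falling were 21 with arrays divided by their median (37.8% of expressed probe sets), and 9, with 20 rising, when divided by their 75th percentile (15.7% and 50%). Those falling as deposited ranged from 46 to 50 with 1 replicate left out. No called relative slope or pair named above changed sign. Relative to the median of expressed probe sets, 20 were higher as designed, 7 when centred on the mean, 6 (with 14 lower) on the median change, 13 without the replicate block, 13 with the first time left out and 9 with the last; with 1 replicate left out the range was 9 to 22. On the median change, the higher calls were 1 without the replicate block, 3 with the first time left out, 2 with the last and 1 to 5 with 1 replicate left out, and the lower calls 9 to 13 with 1 replicate left out; centred on the median they were 20 and 9. From 0 to 50 min, 1 member was lower on the median change and 1 without the arrays that stood apart. From 50 to 230 min, 50 were lower and 0 higher with no centring, 11 lower and 1 higher on the median change, and 1 higher without the replicate block; with 1 replicate left out the higher calls ranged from 0 to 10. Reliable half-lives numbered 0 with a constant floor, 14 with a straight line on log2 ratios, 4 with arrays divided by their median, 1 with the first time left out, 4 with a Wald interval and 3 to 5 with 1 replicate left out. Their median was 2.56 hr with the straight line, 2.21 hr with arrays divided by their median, 4.98 hr with the first time left out, 2.74 hr without the arrays that stood apart, 3.90 hr over all members with a decay in all 3 replicates, and 1.39 to 2.77 hr with 1 replicate left out. Over all expressed probe sets with a reliable half-life the median was 2.70 hr with the straight line and 2.70 hr with arrays divided by their median. It was 2.63 hr with the first time left out and 2.57 hr without the arrays that stood apart. A constant floor left no reliable member, so it gave no median for the members. Pairs called numbered 2 to 4. The settings on the median change, and leaving out the arrays that stood apart from the changes between times, were chosen after seeing the data. The causes were not tested.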
